A study of Mus musculus with 8 samples.

Results

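Matrix metalloproteinases (Mmp) are zinc-dependent endopeptidases that cleave collagens, elastin and other proteins of the extracellular matrix, and tissue inhibitors of metalloproteinases (Timp) bind and block them. Most Mmp are secreted as inactive proenzymes and are activated outside the cell, so a transcript level does not give an enzyme activity. In the lung they are known for their part in emphysema and in tissue repair, and different cells make different members. Macrophages make Mmp12 and Mmp19, neutrophils carry Mmp8 and Mmp9 in their granules, and fibroblasts and other stromal cells make Mmp2, Mmp3, Mmp14 and the Timp. Transcripts of 10 such genes, Mmp2, Mmp3, Mmp8, Mmp9, Mmp12, Mmp14, Mmp19, Timp1, Timp2 and Timp3, were taken by gene symbol from the 22756 genes that the libraries list, and were set apart by these 3 sources.

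RNA was sequenced from cells of the distal lung of mice that carried either of 2 versions of Chrna7, the gene of the α7 nicotinic acetylcholine receptor. In α7G mice (genotype Chrna7-IRES-tauGFP) the receptor is unaltered and the gene also encodes a tau-GFP reporter. The α7E260A:G mice (Chrna7-E260A-IRES-tauGFP) carry the same reporter and the E260A substitution in the receptor, which was made in the α7G line and reduces the calcium current of the channel. Adult mice of each genotype, over 90% C57BL/6, breathed side-stream cigarette smoke (CS) on 5 days a week for 4 months or room air (control). Each of the 4 groups (α7G control, α7G CS, α7E260A:G control, α7E260A:G CS) held 1 male and 1 female library, and how many mice went into a library is not stated, so that p-values measure the spread between libraries only. Every group had been lavaged and depleted of CD45+ cells with magnetic beads, and the cells were described as mostly EpCAM+ epithelium.

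The libraries held 8020726 to 10944100 reads in coding sequence (CDS), and levels are given as CDS reads of a gene per 1000000 CDS reads of its library (RPM). Of the 10 transcripts, 8 passed the filter of a mean of at least 200 reads and entered a fit over 7195 transcripts, while Mmp14 (mean 177 reads) and Timp1 (mean 136 reads) did not. Values for Mmp14 and Timp1 come from a fit of 14140 genes with a looser filter. Epithelial markers (Epcam, Sftpc, Scgb1a1 and 4 more) summed to 51350 to 79809 RPM in the α7G libraries and 14056 to 50545 RPM in the α7E260A:G libraries, endothelial markers to 214 to 568 RPM and mesothelial markers to 36.4 to 110 RPM. In spite of the depletion of CD45+ cells, Ptprc, which encodes CD45, stood at 771 to 1935 RPM and 12 of 12 macrophage markers had enough reads for the fit. A summed level of 11 macrophage markers (without Chi3l3, which held most of the sum of the 12) was 3718 to 4080 RPM in the α7G libraries and 6659 to 7935 RPM in the α7E260A:G libraries. In these libraries of mixed cells, fewer cells of a type and less RNA per cell cannot be told apart. Libraries also differed in how counts depended on CDS length, by −0.24 to 0.41 on the log2 scale per doubling of length.

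The 10 genes were spread over 7 chromosomes (coordinates in NCBIM37). Mmp12 (chromosome 9, 7344381 to 7369499), Mmp3 (7445822 to 7455972) and Mmp8 (7558429 to 7568486) lay on the plus strand of a single cluster of 10 Mmp genes. The other 7 genes of the cluster had mean counts under 10, among them Mmp13 at 2.88 and Mmp27 at 9.75 reads. Mmp1b, on the minus strand, overlaps the 3′ end of Mmp12 and had 0 reads in every library. Outside the cluster lay Mmp2 (chromosome 8, 95351227 to 95377316), Mmp9 (chromosome 2, 164766280 to 164781350), Mmp14 (chromosome 14, 55050441 to 55060095) and Mmp19 (chromosome 10, 128228009 to 128237880). The Timp genes lay on chromosome X (Timp1, 20447292 to 20451861), chromosome 11 (Timp2, 118162383 to 118217054) and chromosome 10 (Timp3, 85763117 to 85812251).

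The neighbours Mmp12 and Mmp3 differed with CS and genotype in opposite directions in the values below, and their promoters are shown beside that of Mmp8 for this reason. RefSeq start sites in GRCm38.p6, a later build than that of the counts, were found for 7 of the 10 genes, with both start sites of Mmp12. Each sequence runs from 250 bases before the start to 50 bases after it, on the plus strand of chromosome 9, and capitals mark TGANTCA, the binding motif of the AP-1 factors (it reads the same on both strands).
Mmp3 (chr9:7445572-7445871): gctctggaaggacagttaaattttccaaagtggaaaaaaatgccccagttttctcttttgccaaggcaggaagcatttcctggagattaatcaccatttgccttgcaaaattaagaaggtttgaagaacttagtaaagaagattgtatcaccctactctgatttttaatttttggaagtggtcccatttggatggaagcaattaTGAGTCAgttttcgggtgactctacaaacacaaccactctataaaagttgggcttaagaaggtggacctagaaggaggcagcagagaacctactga
Mmp12 start site 1 (chr9:7344147-7344446): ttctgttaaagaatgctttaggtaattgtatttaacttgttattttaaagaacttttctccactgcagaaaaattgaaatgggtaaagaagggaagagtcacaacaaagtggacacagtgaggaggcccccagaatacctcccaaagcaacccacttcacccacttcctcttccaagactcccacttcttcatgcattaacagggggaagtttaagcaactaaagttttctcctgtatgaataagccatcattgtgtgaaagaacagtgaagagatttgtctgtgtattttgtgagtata
Mmp12 start site 2 (chr9:7347124-7347423): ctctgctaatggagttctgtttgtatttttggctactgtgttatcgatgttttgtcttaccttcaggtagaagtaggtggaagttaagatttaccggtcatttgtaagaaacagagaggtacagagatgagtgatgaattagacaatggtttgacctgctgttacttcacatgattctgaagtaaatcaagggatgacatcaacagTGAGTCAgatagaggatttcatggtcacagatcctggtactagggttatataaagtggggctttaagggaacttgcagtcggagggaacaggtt
Mmp8 (chr9:7558179-7558478): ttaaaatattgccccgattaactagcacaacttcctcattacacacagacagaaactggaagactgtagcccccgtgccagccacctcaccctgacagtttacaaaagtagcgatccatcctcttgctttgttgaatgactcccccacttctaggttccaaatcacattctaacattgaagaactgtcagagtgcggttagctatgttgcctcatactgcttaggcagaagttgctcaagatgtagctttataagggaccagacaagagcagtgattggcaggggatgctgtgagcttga
The motif stood 46 bases before the Mmp3 start and 44 bases before the second Mmp12 start, in both as TGAGTCA, and was not in the other 2 sequences. Of the 8 promoters found for these genes 2 held it, against 7.81% of 32851 mouse promoters of the same 300 bases. A match of letters is a description of these windows and shows no binding.

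**Figure D1:**
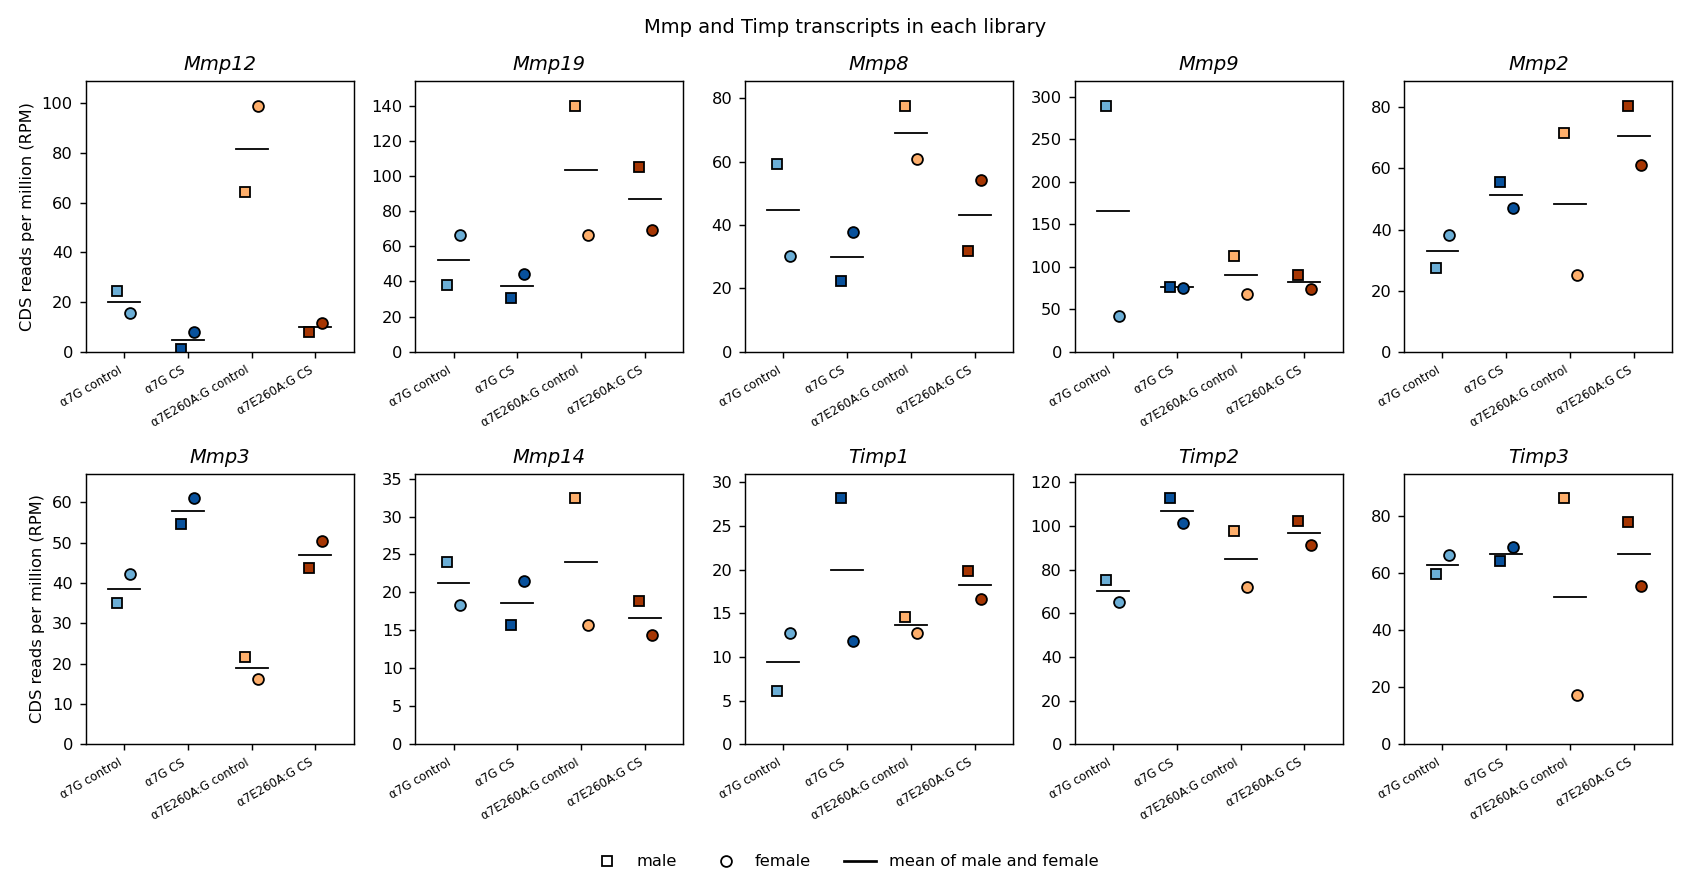
RPM of each of the 10 transcripts (vertical axes, each from 0) in the 8 libraries, by group, with squares for male and circles for female libraries and a bar at the mean of both. Mmp12 sits between 1.28 and 11.7 RPM in the CS libraries and between 15.7 and 99.0 RPM in the controls, and a single α7G control library holds 289 RPM of Mmp9.

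Mmp12, macrophage elastase, had the widest range of the 10 transcripts. Its level was lower with CS in both genotypes and higher in α7E260A:G than in α7G controls. In α7G control libraries it stood at 24.4 RPM in the male and 15.7 RPM in the female, and in α7G CS libraries at 1.28 RPM (11 reads) and 8.12 RPM. In α7E260A:G control libraries it stood at 64.2 RPM in the male and 99.0 RPM in the female, and in α7E260A:G CS libraries at 8.10 and 11.7 RPM. All 4 CS libraries lay below all 4 control libraries, which 0.417% of all transcripts tested did. The exact 95% binomial interval, which covers counting error only, of the lowest library was 0.639 to 2.29 RPM, and that of the lowest control library 13.3 to 18.4 RPM.

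The mean of CS libraries was 0.234 times that of controls in α7G and 0.122 times in α7E260A:G. Within a sex, CS libraries held 0.0524 times the RPM of controls in α7G males, 0.518 in α7G females, 0.126 in α7E260A:G males and 0.118 in α7E260A:G females. Mmp12 was the only 1 of the 10 past 2-fold lower in either genotype with both sexes on the same side, where 5.43% of all transcripts were in α7G and 0.417% in α7E260A:G. In edgeR's quasi-likelihood test the log2 fold-change with CS over both genotypes was −2.55 (SE 0.54, unadjusted p = 0.00196), and with the Benjamini-Hochberg adjustment over all transcripts it did not pass (adjusted p = 0.63). DESeq2 gave the same log2 fold-change with an adjusted p of 0.00086, and in α7E260A:G alone −3.17 with an adjusted p of 0.016. Over all alternatives the adjusted p ran from 0.00086 to 1.0 over both genotypes, and from 0.016 to 1.0 in α7E260A:G. In α7G alone the log2 fold-change was −1.95 (SE 0.76, edgeR adjusted p = 0.59), and it was −1.16 without the male and −3.84 without the female CS library. Whether Mmp12 passed thus depended on the tool, while it was lower in each of 4 same-sex pairs (12.1% of all transcripts were).

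Between genotypes, Mmp12 in α7E260A:G was 4.07 times the α7G mean in controls and 2.11 times in CS. It was higher in 4 of 4 same-sex pairs, although the genotypes overlapped, since the α7E260A:G CS libraries lay below the α7G controls. The log2 fold-change over both exposures was 1.65 (SE 0.52, edgeR adjusted p = 0.25), and DESeq2 called it with an adjusted p of 0.028 (range over alternatives 0.028 to 0.72). The change of the CS response with genotype, −1.20 on the log2 scale (SE 1.04, edgeR adjusted p = 0.997), was close to its own error and turned to 0.68 without the female α7G CS library.

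Mmp19, another macrophage enzyme, was higher in α7E260A:G in 3 of 4 same-sex pairs, by 3.71-fold in control males. It stood at 37.8 and 66.6 RPM in the male and female α7G control libraries and at 30.6 and 44.2 RPM with CS. In α7E260A:G it stood at 140.0 and 66.4 RPM in the control libraries and at 105 and 69.4 RPM with CS. The genotypes overlapped by a single pair of libraries, the female controls, with 66.6 RPM in α7G against 66.4 RPM in α7E260A:G. With RPM scaled by TMM factors (edgeR's trimmed mean normalisation) they did not overlap, and no share of all transcripts is given on that scale. The log2 fold-change between genotypes was 1.12 (SE 0.28, edgeR adjusted p = 0.16), and between CS and control −0.33 (SE 0.28, edgeR adjusted p = 0.73).

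Among the fits without a term for sex, the genotype difference of Mmp19 passed in 3. DESeq2 gave an adjusted p of 0.0085, edgeR with an offset for CDS length 0.031, and edgeR without the female α7E260A:G control library 0.042 (range over alternatives 0.0085 to 0.63). Each of these fits called many more transcripts than edgeR with all libraries, 5.93% of all transcripts by DESeq2, 6.63% with the length offset and 3.82% without that library, against 0.0834%. By edgeR, 0 of the 8 transcripts passed between genotypes and 3 had an unadjusted p under 0.05 (Mmp12, Mmp19 and Mmp3), as 11.9% of all transcripts had, and DESeq2 called these 3.

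Macrophage markers differed along with these values. In α7E260A:G all 12 were higher than in α7G, with a median log2 fold-change of 0.90 (0.04 over all transcripts), and 9 had an unadjusted p under 0.05, while Msr1, a scavenger receptor of macrophages, passed with 2.83 (SE 0.24, edgeR adjusted p = 0.014). With CS, 6 of the 12 were higher and 6 lower, with a median of 0.06, and none passed. An unadjusted p under 0.05 was reached by 2 that were higher (Marco and Cd68) and 2 that were lower (Mrc1 and Msr1). Of all transcripts 7.57% reached it. Set against the marker sum of its own library (without Chi3l3), Mmp12 was 4.22 to 14.9 RPM per 1000 RPM of markers in the controls and 0.337 to 2.12 with CS, so that the exposures did not overlap on this scale either. On the same scale Mmp19 was 8.05 to 17.9 in α7G and 8.74 to 21.0 in α7E260A:G, and the genotypes overlapped widely. These ratios were added after the values were seen and are a description without a test, and no share of all transcripts is given on this scale.

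**Figure D2:**
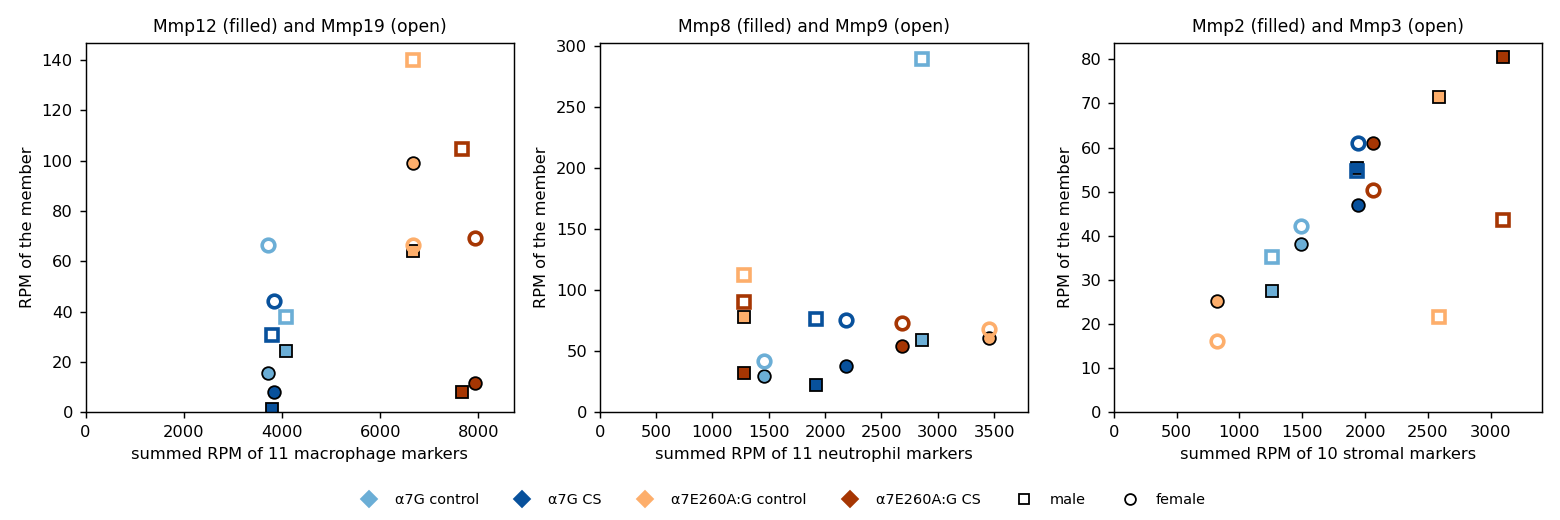
RPM of a pair of transcripts of each source (vertical axes) against the summed RPM of markers of that source in the same library (horizontal axes), with colours for the groups, squares for male and circles for female libraries. Mmp12 of the CS libraries lies at the bottom at every level of the macrophage markers, and Mmp2 is lowest (25.1 RPM) and highest (80.5 RPM) in the libraries with the fewest and the most stromal markers.

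Mmp8, neutrophil collagenase, was higher in α7E260A:G in each same-sex pair but its libraries overlapped between genotypes. It stood at 59.3 RPM in the male and 30.1 RPM in the female α7G control library, and at 22.2 and 37.7 RPM with CS. The α7E260A:G control libraries held 77.7 and 60.8 RPM, and the α7E260A:G CS libraries 31.9 and 54.2 RPM. The ratio of α7E260A:G to α7G was 1.55 for the control means and 1.44 for the CS means. The genotype log2 fold-change was 0.66 (SE 0.32, edgeR adjusted p = 0.50). With CS it was −0.58 (SE 0.32, edgeR adjusted p = 0.65), with the male libraries lower in both genotypes and the female α7G libraries the other way. Mmp8 and Mmp12 were the 2 members higher in α7E260A:G in 4 of 4 pairs, which 7.84% of all transcripts were.

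Mmp9, gelatinase B, turned on 1 library. It stood at 289 RPM in the male α7G control library and at 42.0 RPM in the female one, and at 76.1 and 75.4 RPM in the α7G CS libraries. The α7E260A:G libraries held 113 and 68.2 RPM without CS and 90.4 and 73.6 RPM with it. The 7 libraries other than the male α7G control thus lay between 42.0 and 113 RPM. The log2 fold-change with CS in α7G was −0.98 (SE 0.71, edgeR adjusted p = 0.60), and without that library it was 0.94. The genotype value went from −0.32 to 0.63 without it.

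Neutrophil markers were uneven across libraries. Their summed level was 1279 to 3457 RPM, highest in the female α7E260A:G control and next in the male α7G control library (2860 RPM), and 0 of the 6 tested passed in either comparison or had an unadjusted p under 0.05. S100a8 and S100a9, abundant in mature neutrophils, had means of 5376 and 8046 reads. Elane, Mpo and Ly6g had at most 3, 19 and 23 reads in any library. Camp, Ngp and Ltf had 19 to 205, 29 to 430 and 1353 to 5291 reads. Mmp8 per 1000 RPM of the neutrophil markers was 11.6 to 20.7 in α7G and 17.6 to 60.8 in α7E260A:G, and Mmp9 28.7 to 101 and 19.7 to 88.0. The 60.8 was that of the male α7E260A:G control library, where S100a8 and S100a9 stood at 243 and 410 RPM. Retnlg and Ltf stood there at 55.6 and 192 RPM. In the female α7E260A:G control library these markers stood at 1193, 1567, 161 and 302 RPM. Csf3r and Cxcr2 went the other way, with 296 and 66.2 RPM in that male library against 128 and 44.3 RPM in the female one. The next highest for Mmp8 was 24.9, in the male α7E260A:G CS library. The part of the neutrophil markers in the Mmp8 and Mmp9 values was not tested.

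Mmp3, stromelysin 1, was higher with CS and lower in α7E260A:G, the opposite of Mmp12 in both comparisons. It stood at 35.1 and 42.2 RPM in the male and female α7G control libraries and at 54.6 and 61.0 RPM with CS. In α7E260A:G it stood at 21.7 and 16.3 RPM in control libraries and at 43.6 and 50.3 RPM with CS. All 4 CS libraries lay above all 4 controls, which 1.65% of all transcripts did, but the margin was 43.6 against 42.2 RPM and was lost with TMM scaling. Within each group the male and female libraries were close, with SDs of 3.83 to 4.98 RPM around means of 19.0 to 57.8 RPM.

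The mean of Mmp3 in CS libraries was 1.50 times that of controls in α7G and 2.48 times in α7E260A:G. It was the only 1 of the 10 at least 2-fold higher with both sexes higher (0.473% of all transcripts were in α7E260A:G, and 1.56% in α7G). The log2 fold-change with CS over both genotypes was 0.98 (SE 0.18, unadjusted p = 0.000805, edgeR adjusted p = 0.63). DESeq2 gave an adjusted p of 0.00099 over both genotypes and 0.018 in α7E260A:G alone, the lowest of ranges over alternatives that both reached 1.0. In α7G alone it was 0.70 (SE 0.25, edgeR adjusted p = 0.59). Between genotypes Mmp3 was lower in 4 of 4 pairs (15% of all transcripts were), by −0.60 on the log2 scale (SE 0.17, edgeR adjusted p = 0.20, DESeq2 adjusted p = 0.049, range over alternatives 0.032 to 0.63). The genotype ratio was 0.491 in controls and 0.813 with CS, and the difference of the CS responses, 0.55 (SE 0.35), did not pass (edgeR adjusted p = 0.997).

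Mmp2, gelatinase A, was higher with CS in each of the 4 same-sex pairs. It stood at 27.4 and 38.2 RPM in α7G control and 55.4 and 47.0 RPM in α7G CS libraries. In α7E260A:G it stood at 71.5 RPM in the male control but 25.1 RPM in the female control library, and at 80.5 and 61.0 RPM with CS, so that the exposures overlapped there. The log2 fold-change with CS over both genotypes was 0.65 (SE 0.27, edgeR adjusted p = 0.63), and between genotypes 0.52 (SE 0.27, edgeR adjusted p = 0.54). Mmp14, the membrane-bound enzyme that activates proMmp2 together with Timp2, was low, at 14.4 to 32.4 RPM over all libraries, with log2 fold-changes of −0.30 with CS (SE 0.23) and 0.06 between genotypes (SE 0.23) in the fit with the looser filter (edgeR adjusted p = 0.73 and 0.97).

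Timp2 was higher with CS in α7G by more than the spread within its groups. It stood at 75.4 and 65.1 RPM in α7G control and at 113 and 101 RPM in α7G CS libraries. Levels in α7E260A:G were 97.8 and 72.0 RPM in control and 102 and 91.2 RPM in CS libraries, and there the exposures overlapped. Over both genotypes the exposures overlapped in RPM and did not with TMM scaling, for which no share of all transcripts is given. CS and control differed by 0.73 on the log2 scale in α7G (SE 0.19, unadjusted p = 0.00569, edgeR adjusted p = 0.59) and 0.12 in α7E260A:G (SE 0.19, edgeR adjusted p = 1.0). The difference between these, −0.61 (SE 0.26), had an unadjusted p of 0.0524 and did not pass (edgeR adjusted p = 0.997). In α7G, DESeq2 gave Timp2 an adjusted p of 0.030, where it called 0.361% of all transcripts (range over alternatives 0.028 to 0.98). The offset for CDS length took the α7G value to 0.27 (SE 0.29), and the Timp have the shortest coding sequences of the 10, at 615 to 661 bases.

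Timp1 had the lowest RPM of Timp1, Timp2 and Timp3. It stood at 6.13 and 12.7 RPM in α7G control, 28.2 and 11.8 RPM in α7G CS, 14.6 and 12.8 RPM in α7E260A:G control and 19.8 and 16.6 RPM in α7E260A:G CS libraries. Its log2 fold-change with CS in α7G was 1.20 (SE 0.49, edgeR adjusted p = 0.65) and rested on the male pair, with a ratio of 4.59 against 0.932 in the females. Timp3, which stays bound to the matrix, stood at 59.8 and 66.3 RPM in α7G control and at 64.4 and 69.3 RPM in α7G CS libraries. The α7E260A:G libraries held 86.3 RPM in the male and 17.3 RPM in the female control and 77.8 and 55.6 RPM with CS. Apart from that female library it stayed between 55.6 and 86.3 RPM, and its log2 fold-changes were 0.30 with CS (SE 0.38) and −0.15 between genotypes (SE 0.38), with edgeR adjusted p of 0.78 and 0.96. Without that library these were −0.038 and 0.18, and with the offset for CDS length −0.084 and 0.050.

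Stromal markers were higher with CS alongside Mmp2, Mmp3 and Timp2. Of the 8 tested, 7 were higher with CS, with a median log2 fold-change of 0.61 (−0.0042 over all transcripts), and Dcn, Lum, Fbln1 and Dpt, all made by fibroblasts, had an unadjusted p under 0.05 (0.98, 1.23, 0.75 and 0.83 on the log2 scale, edgeR adjusted p = 0.63 each). Markers of other cells also had an unadjusted p under 0.05 with CS (edgeR adjusted p = 0.63 each). The epithelial keratins Krt8, Krt18 and Krt19 were higher by 0.59, 0.63 and 0.60 on the log2 scale. Of the 7 epithelial markers, 5 were higher with CS and 2 lower, with a median of 0.18. The mesothelial Msln was higher by 0.78 and the endothelial Cldn5 by 0.52, and Ptprc was lower, at −0.66. Of the 5 endothelial markers, 2 were higher and 3 lower, with a median of −0.051. Of the macrophage markers, Marco (1.05) and Cd68 (0.59) were higher, and Mrc1 (−0.47) and Msr1 (−0.59) were lower. The summed level of the stromal markers was 1256 and 1489 RPM in α7G control libraries and 1934 and 1943 RPM with CS. In α7E260A:G it was 2589 RPM in the male and 824 RPM in the female control library, the library low in Mmp2, Mmp3 and Timp3, and 3101 and 2059 RPM with CS. Per 1000 RPM of stromal markers, Mmp2 was 21.8 to 30.5 over all 8 libraries, against a 3.21-fold range in RPM. Mmp3 on the same scale was 28.0 to 31.4 in the α7G libraries, with and without CS, and 8.38 to 24.4 in the α7E260A:G libraries. The genotypes thus did not overlap on this scale, although they did in RPM, while the exposures overlapped. The lowest values were those of the male α7E260A:G libraries, 8.38 in the control and 14.1 with CS. Much of the marker sum there was Col1a1, Col1a2 and Col3a1, at 490, 691 and 690 RPM in the control and 604, 859 and 645 RPM with CS. Timp2 was 43.7 to 60.1 in α7G and 33.0 to 87.4 in α7E260A:G on this scale. Like those above, these ratios were added after the values were seen and carry no test, and no share of all transcripts is given on this scale.

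**Figure D3:**
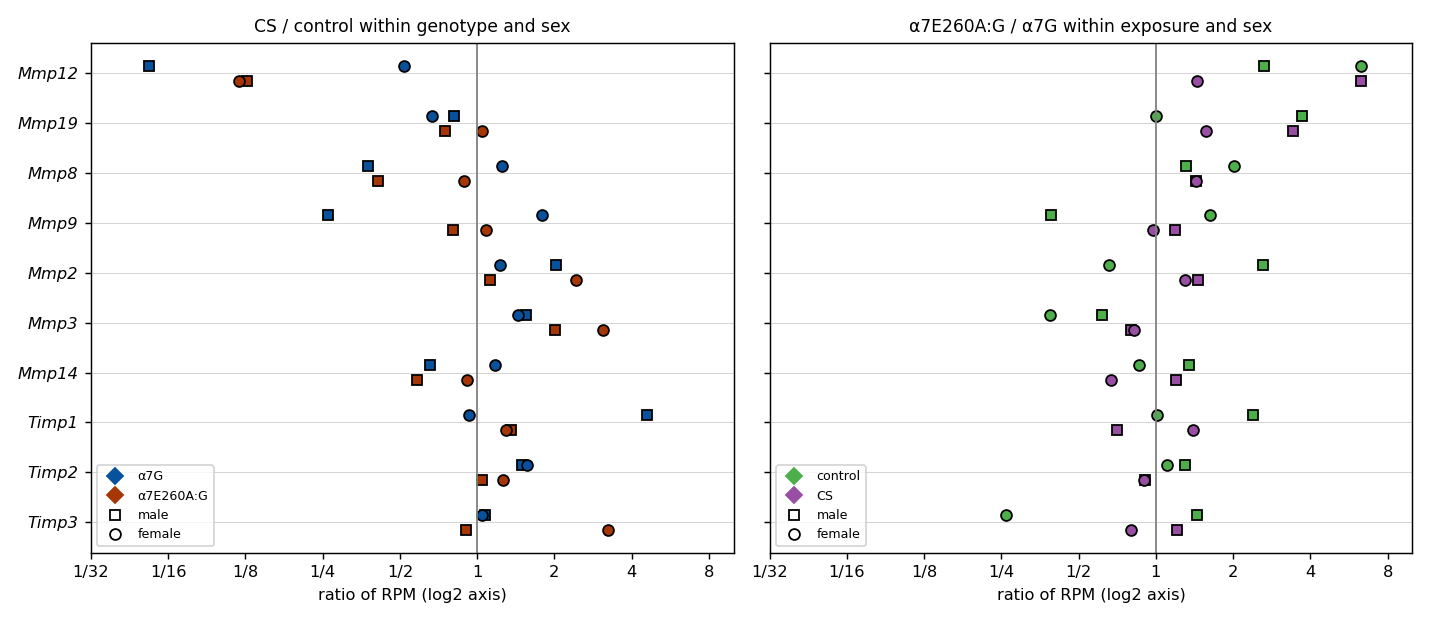
Ratio of RPM of each transcript between CS and control libraries of the same genotype and sex (left) and between α7E260A:G and α7G libraries of the same exposure and sex (right), on log2 axes with a line at 1. Mmp12 lies left of the line in all 4 pairs on the left, from 0.0524 to 0.518, and right of it in all 4 on the right, while Mmp3 does the reverse.

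Counted over the 10, 3 transcripts (Mmp2, Mmp3 and Timp2) were higher with CS in 4 of 4 pairs, against 13.1% of all transcripts, and Mmp12 alone was lower in 4 of 4. By edgeR, 0 of the 8 tested passed in CS against control over both genotypes, where 0% of all transcripts did, and 4 had an unadjusted p under 0.05 (Mmp12, Mmp3, Timp2 and Mmp2), as 7.57% of all had. DESeq2 called 2 of the 8 there, Mmp12 and Mmp3, and 0.542% of all transcripts. In α7G alone edgeR called 0 of the 8 and 0% of all (3 had an unadjusted p under 0.05, as 6.77% of all had), and DESeq2 called Timp2. A fit of the 4 α7G libraries by themselves called Mmp3 and Timp2, and 16.1% of all transcripts. In α7E260A:G alone edgeR called 0 of the 8 and 0% of all (2 had an unadjusted p under 0.05, as 1.68% of all had), and DESeq2 called Mmp12 and Mmp3, with 0.153% of all. For the difference of the CS responses, edgeR called 0 of the 8 and 0% of all, with 0 at an unadjusted p under 0.05 (1.45% of all), and DESeq2 called 0 of the 8 and 0.0417% of all. No member's libraries separated the genotypes in RPM, where 2.99% of all transcripts lay wholly above and 5.14% wholly below in α7E260A:G.

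**Figure D4:**
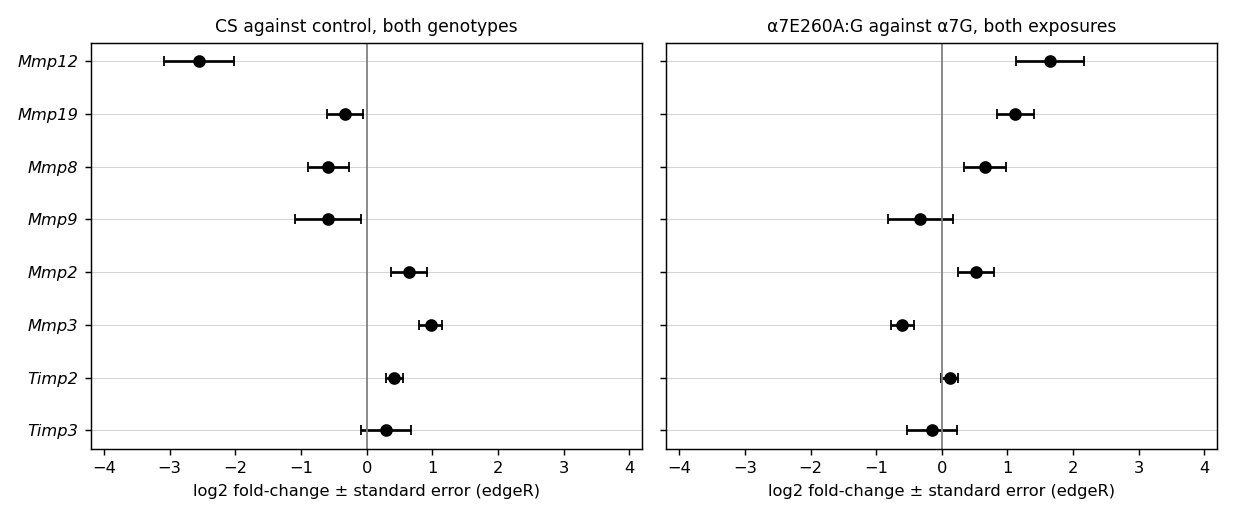
Log2 fold-changes (horizontal axes) of the 8 transcripts tested, with bars of 1 standard error from edgeR, for CS against control over both genotypes (left) and α7E260A:G against α7G over both exposures (right). Mmp12 lies at −2.55 and 1.65, Mmp3 at 0.98 and −0.60, and no value passed after adjustment.

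Levels can be compared between genes per kilobase (kb) of coding sequence. Over the 8 libraries the median was 143 RPM per kb for Timp2 and 100.2 for Timp3, above all 7 Mmp. Mmp19 (42.1), Mmp9 (34.6), Mmp8 (32.9), Mmp3 (29.9), Mmp2 (25.8) and Timp1 (22.3) followed, with ranges over libraries that overlapped between each and the next. Mmp14 (10.6) and Mmp12 (8.09) were the lowest by median, although Mmp12 reached 58.4 RPM per kb in the female α7E260A:G control library and was the highest Mmp there.

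The 7 Mmp summed to 146 to 303 RPM per kb and the 3 Timp to 156 to 315 RPM per kb. The ratio of the Mmp sum to the Timp sum was 0.956 ± 0.384 in α7G control and 0.541 ± 0.111 in α7G CS libraries (mean ± SD, n = 2 each). In α7E260A:G it was 1.16 ± 0.237 in control and 0.748 ± 0.0563 in CS libraries (mean ± SD, n = 2 each). The ratio was lower with CS in both genotypes by group mean, with 1.23 and 0.685 in the α7G controls against 0.463 and 0.619 with CS. In α7E260A:G the libraries stood at 0.997 and 1.33 against 0.709 and 0.788. The Timp have shorter coding sequences (615 to 661 bases) than the Mmp (1395 to 2190 bases). Counts depended on CDS length by 0.23 and 0.057 (log2 per doubling) in the male and female α7G controls, against −0.24 and −0.20 with CS. The α7E260A:G values were 0.41 and −0.24 in controls against 0.19 and −0.20 with CS. The part of this dependence in the ratio was not tested. In the male α7G control library, Mmp9 alone made up 49.9% of the Mmp sum.

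**Figure D5:**
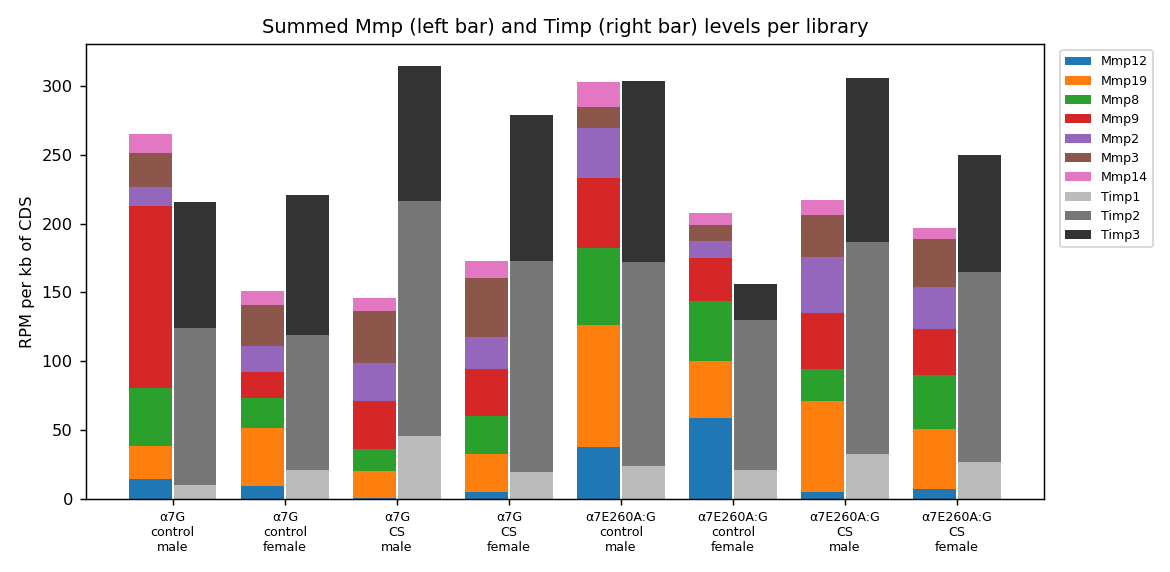
Summed RPM per kb of CDS of the 7 Mmp (left bar of each pair) and 3 Timp (right bar) in each of the 8 libraries, with a colour for each transcript. The Timp bar is the higher in all 4 CS libraries and in the female α7G and the male α7E260A:G control libraries. Mmp9 makes up 49.9% of the Mmp bar of the male α7G control library.

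The transcripts whose pattern over the 8 libraries was most like that of each member are given by Pearson's r of log2(RPM + 0.5), as a description over libraries that share group, sex and depth. Mmp2 was most like Emp1 (r = 0.983) and Sparc (0.926), a matrix-binding glycoprotein, and Timp2 like Olfml3 (0.954) and Ecm1 (0.946), both secreted matrix proteins. Mmp8 was most like Ccr1 (0.971), a chemokine receptor of myeloid cells, and Siglece (0.954), a sialic acid receptor of the same cells. Siglece was also the second nearest to Mmp12 (0.874), after Gbp2 (0.890), the highest r of any transcript with Mmp12. Mmp9 was most like the cytokine Il1b (0.968), which stood at 561 RPM in the male α7G control library and at 101 to 215 RPM in the others. Mmp19 was most like the endotoxin receptor Tlr4 (0.952), Mmp3 like Sypl (0.982) and Timp3 like Thra (0.982).

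Of 17 further Mmp and Timp genes, 5 (Mmp1a, Mmp1b, Mmp7, Mmp20 and Mmp21) had 0 reads in all libraries, and 11 had a mean under 10 reads with these 5 included. Mmp15, a membrane-bound enzyme, was the only 1 tested, with a genotype log2 fold-change of −0.79 (SE 0.36, edgeR adjusted p = 0.46). Among 15 activators and regulators of Mmp, 10 were tested and none passed. Between genotypes, Plaur, the urokinase receptor (0.84 on the log2 scale), Cd44, which can hold Mmp9 at the cell surface (0.66), and Lrp1, which clears protease complexes (1.66), were higher in α7E260A:G, with an unadjusted p under 0.05, as 854 of all 7195 transcripts had. Sdc1, a proteoglycan of epithelium, was lower (−0.83), with edgeR adjusted p of 0.10 to 0.17 for these 4. With CS, Serpinf1 was higher by 0.95 on the log2 scale (SE 0.14, edgeR adjusted p = 0.63).

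Of 18 other proteases of the matrix, 11 were tested and none passed, and 10 of the 11 were higher in α7E260A:G. Ctss, an elastinolytic cathepsin of macrophages, was higher by 1.04 (SE 0.34), Ctsb by 0.68 (SE 0.17), Adam17, which sheds tumour necrosis factor, by 0.90 (SE 0.21) and Adam9 by 0.43 (SE 0.17), with edgeR adjusted p of 0.14 to 0.38. Of 15 matrix proteins on which Mmp act, 11 were tested and none passed. With CS, Fn1, fibronectin, was lower by −1.31 (SE 0.40), Eln, the elastin precursor, by −0.92 (SE 0.32), and Dcn, decorin, was higher by 0.98 (SE 0.18), each with an edgeR adjusted p of 0.63. The remaining 8 had an unadjusted p above 0.05, where 545 of all 7195 transcripts were under it.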

How the data were processed

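Strand-specific mRNA libraries (TruSeq) had been sequenced from the 8 samples. Per the labels and the study's methods, the authors aligned reads with STAR to mm9 (NCBIM37) and counted those in the CDS of GENCODE M1 genes with htseq-count. The deposited values were raw counts of CDS reads per gene, in 1 file per library. The strand setting of the counting and the versions of these tools are not given in the sources used here.

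From these counts, RPM was the count over the library's total of 8020726 to 10944100, and exact (Clopper-Pearson) 95% intervals cover counting error only. At these totals 3 reads correspond to 0.274 to 0.374 RPM. After the study, transcripts with a mean count of at least 200 were kept, and immunoglobulin, histocompatibility, Gm and ribosomal subunit genes were left out by name, which left 7195. The main test was edgeR 4.0.16's quasi-likelihood F test (R 4.3.3, limma 3.58.1) with TMM factors and a mean per group, without a term for sex, and with Benjamini-Hochberg adjustment over all 7195 at 0.05. SE is the log2 fold-change over the square root of F. Alternatives were DESeq2 1.42.0, library size scaling, edgeR's filterByExpr (14140 genes), no filter (17542 genes), sex as a block, an offset for CDS length (lowess, span 0.667), single genotypes and leaving out each library. The scripts were tested on simulated data.

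The members and gene lists were chosen with earlier results of these data known. The genes named are the 10 members, the 3 transcripts most like each by pattern (of which some are given), and up to 4 genes a list by lowest p, or all of a count of 5 or fewer. Some neutrophil and stromal markers are named beside these for their reads or levels. Among the regulators of Mmp, 1 result that the rule would name is not reported here.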

Additional observations from a re-analysis of the deposited data

Results flagged for a closer look

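For CS against control, the male and the female pairs of Mmp9 lay on opposite sides of 1, as did those of 7.70% of all transcripts. For α7E260A:G against α7G, those of Mmp14 and Timp3 did, as did those of 22.5% of all transcripts. The difference between the sexes was not tested, since each sex has a single library per group. The ratio of CS to control for Mmp9 was 0.263 and 0.803 in the males of α7G and α7E260A:G, and 1.80 and 1.08 in the females. The 0.263 has the single control library with 289 RPM as its base. The ratio of α7E260A:G to α7G for Mmp14 was 1.35 and 1.20 in the control and CS males, and 0.856 and 0.667 in the females. For Timp3 the same ratio was 1.44 and 1.21 in the males, and 0.261 and 0.803 in the females. The 0.261 rests on the female α7E260A:G control library, at 17.3 RPM.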

How the results depend on the processing

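Of 640 values compared with an alternative, 575 kept their direction and their side of the threshold and 19 changed sign. The causes of these changes were not tested. DESeq2 called 1 member for CS in α7G, 2 for CS in α7E260A:G, 3 between genotypes and 2 for CS over both genotypes, where edgeR called 0. The 4 α7G libraries alone called 2, and the CDS length offset called 1 between genotypes. With TMM-scaled RPM the genotypes did not overlap in 1 member (Mmp19), and no share of all transcripts is given on that scale. Without division by CDS length the ratio of Mmp to Timp was 2.64 in α7G control, 1.43 in α7G CS, 3.03 in α7E260A:G control and 1.97 in α7E260A:G CS.

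The sexes are the only labels that repeat across groups, and deviations of same-sex libraries correlated at −0.12 to 0.84 over the 6 pairs of groups. The labels give same-sex libraries a shared sex only, and whether they share more was not tested. The main fit did not treat them as paired. Sex as a replicate block changed no call of a member on its own, while between genotypes it called 40 of all 7195 transcripts, against 6 without it. With the CDS length offset the block called 3 members between genotypes (Mmp3, Mmp12 and Mmp19, with 675 of all 7195 transcripts). With filterByExpr as well it called 2 (Mmp12 and Mmp19, with 710 of all 14140 genes). Under that last fit Timp3 for CS in α7G was −0.16 and Mmp14 0.050, and under the block with the offset Timp3 was −0.23. The offset alone took Timp3 to −0.25 for CS in α7G, 0.050 between genotypes and −0.084 for CS over both, and Timp2 for CS in α7E260A:G to −0.0015.

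Leaving out 1 library gave 0 to 1 members called between genotypes and 0 in the other comparisons. The log2 fold-change with CS in α7G then ran from −0.88 to 0.080 for Mmp8 and from −1.74 to 0.94 for Mmp9 (both turned without the male α7G control), and from −0.75 to 0.18 for Mmp19 (without the female α7G control). In α7E260A:G it ran from −0.36 to 0.020 for Mmp9 and −0.60 to 0.13 for Mmp19 (without the male control), and −0.28 to 1.70 for Timp3 (without the female control). Over both genotypes it ran from −0.97 to 0.37 for Mmp9 and −0.038 to 0.96 for Timp3. Between genotypes the range was −0.74 to 0.63 for Mmp9 and −0.82 to 0.18 for Timp3. The difference of the CS responses ran from −1.99 to 0.68 for Mmp12 and −1.13 to 1.56 for Mmp9. Library size scaling moved the median CS value of all transcripts in α7G from −0.02 to −0.14 and that of the difference from 0.03 to 0.22. With 2 libraries a group, a p above the threshold does not show that levels were alike.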
